A study of Mus musculus with 117 samples.

Results

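The Cyp3a cluster of the mouse is a family of cytochrome P450 genes, enzymes of the endoplasmic reticulum that oxidise drugs, steroids and bile acids. The 9 members described here are Cyp3a11, Cyp3a13, Cyp3a16, Cyp3a25, Cyp3a41a, Cyp3a41b, Cyp3a44, Cyp3a57 and Cyp3a59, out of 21631 protein-coding genes of the autosomes and X. They were chosen by name on the state differences seen in an earlier look at the same segmentations, in which the ends of Cyp3a41b and Cyp3a41a were among the places where strains differed most. Their divergence between strains is therefore a description, and no test is attached to it. Each gene was taken with 2 kb to either side, which gave 1636 bins of 200 bp.

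The data come from chromatin immunoprecipitation sequencing of liver hepatocytes of 9 inbred strains, all of them female and 12 weeks of age, with no treatment named. The wild-derived strains were WSB/EiJ, PWK/PhJ and CAST/EiJ, and the classical laboratory strains were C57BL/6J, 129S1/SvImJ, A/J, NZO/HlLtJ, NOD/ShiLtJ and DBA/2J. The 117 libraries, 13 a strain, cover 4 histone marks (H3K4me1, H3K4me3, H3K27ac and H3K27me3) with 3 libraries a mark from separately numbered mice, and 1 input library. The deposited files hold 1 segmentation a strain, in which each bin carries 1 of 14 chromatin states, so the mice of a strain are joined and the spread within a strain and the depth are unknown. A state number serves only as a name, and SDs are over the 9 strains.

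Cyp3a11 is the main member of adult mouse liver and a classical target of the xenobiotic receptor PXR (Nr1i2). Cyp3a16, Cyp3a41a, Cyp3a41b and Cyp3a44 are known for expression mainly in females, under the sex-dependent pattern of growth hormone, which acts through STAT5B, CUX2 and BCL6. Cyp3a13 lies apart from the others on the same chromosome. H3K4me3 and H3K27ac are known from active starts and enhancers, H3K4me1 from enhancers, and H3K27me3 from genes held silent by Polycomb complexes.

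The sequences just upstream of the start sites are shown because the 3 members that differed most between strains share much of them with Cyp3a44 and Cyp3a11, which differed less. Each is the 250 bases before the first start site that RefSeq lists, on the minus strand of GRCm38.p6, from 5′ to 3′. They come from chr5:145469724-145469973 for Cyp3a16, chr5:145584731-145584980 for Cyp3a41b, chr5:145720137-145720386 for Cyp3a41a, chr5:145805875-145806124 for Cyp3a44 and chr5:145879855-145880104 for Cyp3a11. The last few bases of the Cyp3a16, Cyp3a41b and Cyp3a44 sequences fall inside the annotated gene span. Capitals mark exact matches on either strand to TGTTTAC (a FOXA site), CAAAGTCCA (an HNF4 site) and ATCAAT (a core shared by CUX2 and HNF6).
Cyp3a16: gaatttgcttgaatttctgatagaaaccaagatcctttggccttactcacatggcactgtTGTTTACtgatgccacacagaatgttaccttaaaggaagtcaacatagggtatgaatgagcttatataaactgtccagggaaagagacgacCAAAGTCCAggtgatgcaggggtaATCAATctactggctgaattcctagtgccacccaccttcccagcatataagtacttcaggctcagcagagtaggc
Cyp3a41b: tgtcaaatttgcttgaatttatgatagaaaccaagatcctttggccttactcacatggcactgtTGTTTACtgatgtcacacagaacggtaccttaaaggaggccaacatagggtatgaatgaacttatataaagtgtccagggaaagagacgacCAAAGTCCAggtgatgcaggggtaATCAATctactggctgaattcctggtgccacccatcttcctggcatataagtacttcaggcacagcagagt
Cyp3a41a: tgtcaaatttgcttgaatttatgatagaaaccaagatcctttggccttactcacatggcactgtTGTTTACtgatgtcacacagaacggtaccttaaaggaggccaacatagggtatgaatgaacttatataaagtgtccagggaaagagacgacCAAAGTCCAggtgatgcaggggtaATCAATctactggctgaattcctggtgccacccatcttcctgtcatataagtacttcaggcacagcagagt
Cyp3a44: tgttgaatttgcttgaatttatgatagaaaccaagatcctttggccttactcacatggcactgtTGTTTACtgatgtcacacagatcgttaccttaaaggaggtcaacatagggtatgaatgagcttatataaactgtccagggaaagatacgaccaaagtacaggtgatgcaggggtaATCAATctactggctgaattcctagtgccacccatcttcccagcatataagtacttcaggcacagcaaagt
Cyp3a11: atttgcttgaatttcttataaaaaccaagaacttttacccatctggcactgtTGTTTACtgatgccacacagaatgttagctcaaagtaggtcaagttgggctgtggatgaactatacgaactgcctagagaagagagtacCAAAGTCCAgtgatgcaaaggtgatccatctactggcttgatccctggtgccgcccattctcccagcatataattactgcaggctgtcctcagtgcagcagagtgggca

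The Cyp3a41b and Cyp3a41a sequences were identical at 249 of 250 bases and differed by G222T, where the position is counted from 1 at the 5′ end, the first base is that of Cyp3a41b and the second that of Cyp3a41a. Aligned with Cyp3a44, Cyp3a41b was 94.8% identical, and with Cyp3a16 it was 91.3% identical. Outside this group Cyp3a25 and Cyp3a59 were the most alike, at 94.8%. Cyp3a11 was 76.6% identical to Cyp3a16. TGTTTAC was found in 5 of the 9 members (Cyp3a16, Cyp3a41b, Cyp3a41a, Cyp3a44 and Cyp3a11) and in 3.12% of 26794 promoters of the same length. CAAAGTCCA was found in 4 members, all of these but Cyp3a44, and in 0.384% of promoters. ATCAAT was found in 5 members, the female-predominant 4 and Cyp3a57, and in 6.93% of promoters. The STAT5 pattern TTCNNNGAA was in none of the 9 windows and in 7.21% of all promoters. AGGTCA and TGAACT, core words of nuclear receptor sites, were in 5 and 3 members and in 13.9% and 11.8% of promoters, and TATAAA was in 5 members and 13.01% of promoters. A match is a string of letters and not a bound site. No motif searched was found in the 3 members whose starts differed most between strains (Cyp3a16, Cyp3a41b and Cyp3a41a) and nowhere else among the members.

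What the states look like elsewhere gives the terms used below. States 1, 2 and 3 together, called states 1 to 3, held 98.1% ± 2.20 (SD, n = 9) of the bins within 1 kb of the start of 8 hepatocyte marker genes, 39.7% at 3 endothelial genes, 23.6% at 3 stellate cell genes, 19.5% at 3 Kupffer cell and leukocyte genes and 5.39% at 3 bile duct genes. The hepatocyte markers, which match the labelled cell type, had the highest share. States 5, 7, 10, 11, 12 and 13 each took a larger share of the X chromosome than of the autosomes in 9 of 9 strains. They are called the X-enriched states, and state 13 alone held 85.8% of X and 11.1% of the autosomes. Both groupings were made after the states of the Cyp3a genes had been seen. Within 1 kb of the starts of 17274 genes, state 3 was 42.9 times as frequent as over the genome. State 12 was 22.7 times, state 5 was 17.6 times, state 11 was 15.4 times and state 1 was 10.5 times as frequent. States 8, 10, 7 and 9 were at 8.48, 7.36, 7.15 and 4.34 times their genome share. State 13 was at 0.905 times and state 14, the most widespread, at 0.351 times. Of the X-enriched states, only state 13 was thus not more frequent at starts than over the genome.

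Over the 1636 member bins, 43.4% ± 5.15 differed in state between a pair of strains on average (SD over strains, 36 pairs), against 15.0% of the bins of chromosomes 1 to 19 and X. Only 18.5% of the member bins had 1 state in all 9 strains, against 61.8% of the genome. A single member bin showed up to 7 different states among the 9 strains. The bins between the members of the cluster differed in 40.5% of cases. They adjoin the chosen genes and share segments with them, so this value is not independent of the choice. With states 13 and 14 treated as 1 state the value over member bins was 37.6%, with a match allowed within 1 bin 31.9%, and without Cyp3a41a and Cyp3a41b 37.5%.

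The members spread over a wide range. Cyp3a41b differed in 70.2% ± 9.55 of its bins and ranked 10 of 21631 genes, Cyp3a41a in 67.8% ± 8.86, rank 18, and Cyp3a16 in 62.9% ± 7.76, rank 44. Next came Cyp3a11 with 41.2% ± 11.7, Cyp3a59 with 39.9% ± 5.54, Cyp3a44 with 37.6% ± 7.17 and Cyp3a25 with 36.6% ± 4.66. Cyp3a57 with 25.7% ± 12.6 and Cyp3a13 with 23.2% ± 2.96 lay nearest to the median of all genes, which was 19.7%. The value of Cyp3a57 was 16.7% without NOD/ShiLtJ and 9.84% with states 13 and 14 treated as 1 state. Thus 3 of 9 members reached 50%, a level passed by 1.6% of all genes, with Cyp3a16 the nearest above it and Cyp3a11 the nearest below. Without the near-identical copies Cyp3a41a and Cyp3a41b this count was 1. With states 13 and 14 treated as 1 state Cyp3a16 differed in 41.7% and no longer reached 50%, and the count was 2. The state that led the gene was not the same in all strains in 8 of 9 members, against 33.9% of genes, and Cyp3a13 was the exception. When a leading state was counted only where it held at least 50% of the bins, the count was 2. The shares of all genes under this stricter rule and with states 13 and 14 treated as 1 state were not computed. At least 3 leading states were found in 4 members, Cyp3a41b, Cyp3a41a, Cyp3a44 and Cyp3a11, against 7.25% of genes. Because the genes were listed for this divergence, these shares are context and not evidence.

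**Figure D1:**
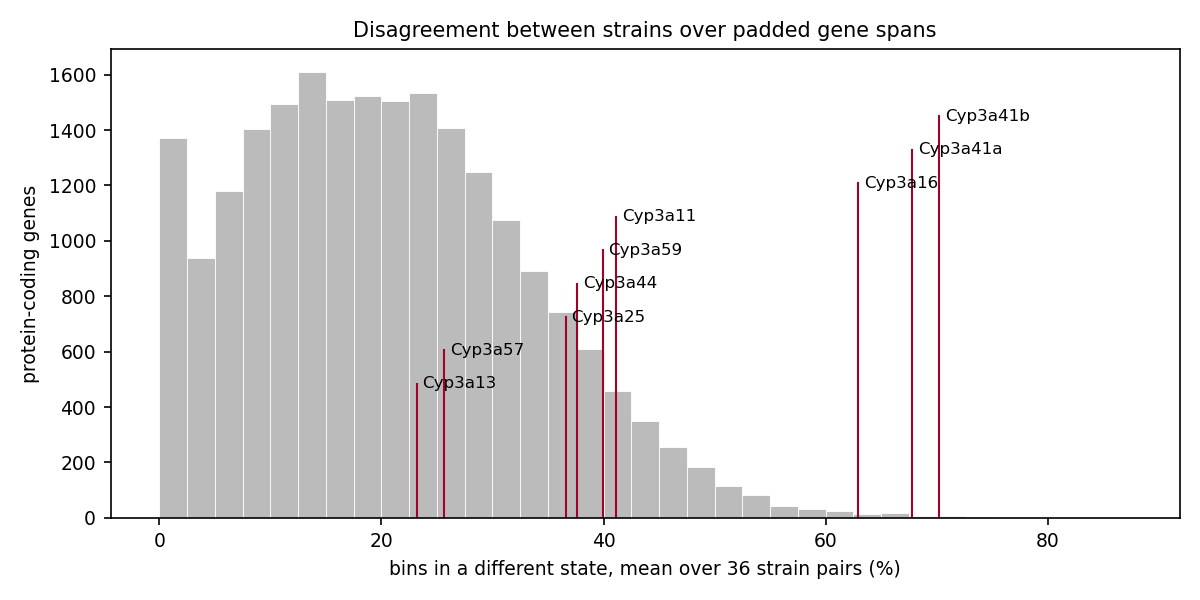
The grey bars count the 21631 protein-coding genes by the mean percentage of bins in a different state over 36 strain pairs (x axis), and each red line marks a Cyp3a member, its height chosen only to separate the names. Cyp3a16, Cyp3a41a and Cyp3a41b stand at 62.9%, 67.8% and 70.2%, in the far right tail, while Cyp3a13 and Cyp3a57 stand within the bulk.

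The cluster is described here by its share of X-enriched states and of states 1 to 3. The 8 clustered members lie in 774 kb, chr5:145343001-146117000, and Cyp3a13 lies apart at chr5:137892933-137925610. From left to right the order is Cyp3a57, Cyp3a16, Cyp3a41b, Cyp3a41a, Cyp3a44, Cyp3a11, Cyp3a25 and Cyp3a59, with Cyp3a57 and Cyp3a59 on the plus strand and the others on the minus strand. X-enriched states covered 373.4 kb of the 774 kb in NOD/ShiLtJ, 260.0 kb in A/J, 225.0 kb in DBA/2J, 219.0 kb in C57BL/6J, 198.0 kb in 129S1/SvImJ and 161.0 kb in NZO/HlLtJ. They covered 56.4 kb in PWK/PhJ, 6.2 kb in CAST/EiJ and 0.8 kb in WSB/EiJ. All 3 wild-derived strains lay below all 6 classical strains, with no overlap. The autosomes at large did not show this order: the X-enriched share was 13.5% in WSB/EiJ, the highest of the 9, 11.7% in PWK/PhJ, 10.7% in CAST/EiJ and from 9.70% to 13.1% in the classical strains. What share of all genes separates the strain groups without overlap was not computed, for the cluster or for the single members below.

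**Figure D2:**
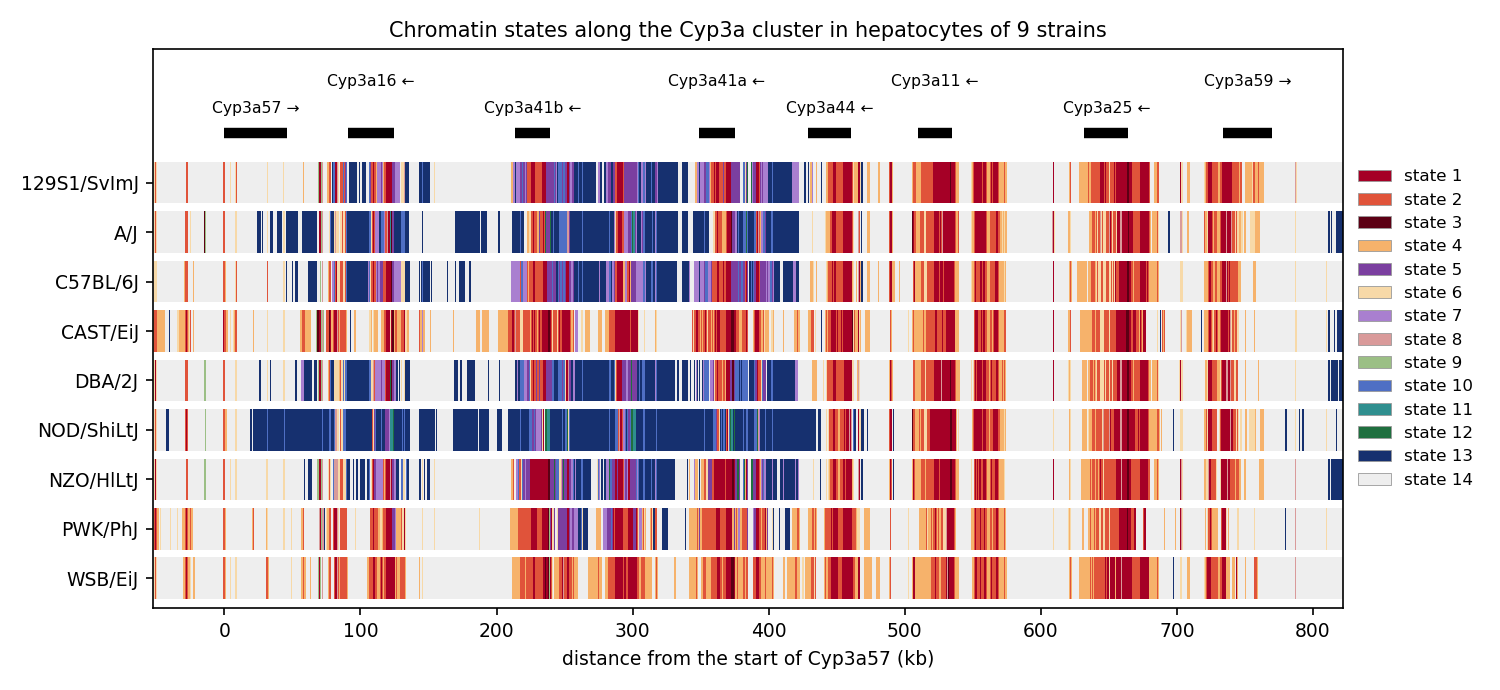
Each row is a strain, the x axis is the distance from the start of Cyp3a57 in kb, the colours are the 14 states, and black bars with arrows show the 8 genes and their strand. Blue, violet, teal and dark green, the X-enriched states, fill much of the left part up to Cyp3a44 in NOD/ShiLtJ and the other classical strains. They are nearly absent from CAST/EiJ and WSB/EiJ, and Cyp3a11, Cyp3a25 and Cyp3a59 hold none of them. Pale green is state 9, which is not X-enriched.

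The X-enriched stretches shared a right border, or nearly so, in most classical strains. Their last run of at least 2 kb inside the cluster ended at position 145767600 in 129S1/SvImJ, A/J, C57BL/6J and NZO/HlLtJ, and at 145767000 in DBA/2J. This lies shortly left of Cyp3a44, beyond the 3′ end of that minus-strand gene. In NOD/ShiLtJ the last such run reached 145815000, beyond the start of Cyp3a44, and in PWK/PhJ it ended at 145760600. The left border varied more: the first run began 21.4 kb from the Cyp3a57 start in NOD/ShiLtJ, 23.8 kb in A/J, 51.6 kb in DBA/2J, 61.2 kb in C57BL/6J, 61.6 kb in NZO/HlLtJ, 91.4 kb in 129S1/SvImJ and 123.2 kb in PWK/PhJ. CAST/EiJ had 1 run of this length, chr5:145603001-145605200, and WSB/EiJ had none. In every strain but WSB/EiJ the longest unbroken run began between Cyp3a41b and Cyp3a41a: it was 69.4 kb in NOD/ShiLtJ, chr5:145638001-145707400, and 39.6 kb in both 129S1/SvImJ and A/J, chr5:145639201-145678800 in each.

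Both state 5 and state 7 are rare on the autosomes and were concentrated here. State 5 covered 0.0258% of the autosomes and 2.58% of the member bins, 99.9 times as much, and state 7 covered 0.0323% and 2.35%, 72.8 times as much. Without Cyp3a41a and Cyp3a41b the member shares were lower, 0.866% for state 5 and 1.22% for state 7. The 774 kb interval is 0.0314% of the autosomes and held 3.19% of all autosomal state 5 bins over the 9 segmentations and 2.29% of those of state 7. By strain, the interval held 6.11% of autosomal state 5 bins in DBA/2J, 5.14% in NZO/HlLtJ, 4.89% in 129S1/SvImJ, 3.95% in A/J, 3.899% in C57BL/6J, 2.48% in PWK/PhJ and 1.62% in NOD/ShiLtJ, and 0 bins in CAST/EiJ and WSB/EiJ. State 13 was at 0.655 times its autosomal share over the member bins on average, with 29.2% of them in NOD/ShiLtJ, 15.2% in A/J and 0% in PWK/PhJ and WSB/EiJ.

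The 4 members Cyp3a57, Cyp3a16, Cyp3a41b and Cyp3a41a had X-enriched states in at least 40% of their bins in 1 strain and in under 10% in another, against 8.82% of autosomal genes. The 3 members Cyp3a16, Cyp3a41b and Cyp3a41a also had states 1 to 3 in at least 40% of bins in 1 strain, against 0.295% of autosomal genes. Without NOD/ShiLtJ, Cyp3a57 did not meet the first rule and the count was 3. Both rules use groupings made after the states of these genes had been seen, so these shares are context and not evidence. Cyp3a41b and Cyp3a41a are near-identical copies and do not count as independent members.

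Cyp3a16, a female-predominant steroid-metabolising member at chr5:145436309-145469740, showed the widest spread of X-enriched states. These states held 94.7% of its 188 bins in NOD/ShiLtJ, 79.8% in DBA/2J, 78.7% in A/J, 70.2% in C57BL/6J, 55.3% in NZO/HlLtJ, 54.8% in 129S1/SvImJ, 8.51% in PWK/PhJ, 1.06% in CAST/EiJ and 0% in WSB/EiJ. The 6 classical strains were all above the 3 wild-derived ones, with PWK/PhJ the nearest below. State 13 led the gene in the classical strains and state 14 in the wild-derived strains. States 1 to 3 held 50.5% in WSB/EiJ, 37.2% in PWK/PhJ, 27.7% in C57BL/6J, 26.6% in 129S1/SvImJ, 23.4% in CAST/EiJ, 19.7% in NZO/HlLtJ, 13.3% in A/J, 12.8% in DBA/2J and 2.66% in NOD/ShiLtJ. For states 1 to 3 the strain groups overlapped, since CAST/EiJ lay below C57BL/6J and 129S1/SvImJ. No bin of Cyp3a16 had 1 state in all 9 strains.

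Cyp3a41b, at chr5:145558664-145584732, and Cyp3a41a, at chr5:145694049-145720136, are near-identical copies, and how the authors placed reads that fit both is not given in the sources used here. Values of the 2 genes are therefore uncertain and not independent, and whether each strain carries both copies was not tested. At Cyp3a41b the X-enriched states held 92.7% of 151 bins in NOD/ShiLtJ, 59.6% in DBA/2J, 51.7% in 129S1/SvImJ, 50.3% in A/J, 48.3% in C57BL/6J, 34.4% in NZO/HlLtJ, 1.32% in PWK/PhJ and 0% in CAST/EiJ and WSB/EiJ. At Cyp3a41a they held 86.8% in NOD/ShiLtJ, 53.6% in C57BL/6J, 51.7% in 129S1/SvImJ, 48.3% in DBA/2J, 43.7% in A/J, 17.9% in NZO/HlLtJ, 5.30% in PWK/PhJ and 0% in CAST/EiJ and WSB/EiJ. In both copies NOD/ShiLtJ stood far above the other strains and the wild-derived strains were lowest.

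States 1 to 3 ran the other way in the copies. This is partly forced, because both groups are shares of the same bins, and it is not a separate result. At Cyp3a41b they held 82.1% in CAST/EiJ, 81.5% in PWK/PhJ, 72.8% in WSB/EiJ, 56.3% in NZO/HlLtJ, 48.3% in C57BL/6J, 45.7% in 129S1/SvImJ, 30.5% in DBA/2J, 26.5% in A/J and 1.32% in NOD/ShiLtJ. At Cyp3a41a they held 86.1% in CAST/EiJ, 77.5% in PWK/PhJ, 63.6% in WSB/EiJ, 60.9% in NZO/HlLtJ, 46.4% in C57BL/6J, 45.7% in 129S1/SvImJ, 36.4% in DBA/2J, 35.8% in A/J and 9.27% in NOD/ShiLtJ. The order of the strains was the same in both copies. The 3 wild-derived strains were above the 6 classical ones, although at Cyp3a41a WSB/EiJ and NZO/HlLtJ lay close together.

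In several classical strains both kinds of state stood side by side within a copy. In 129S1/SvImJ a state 5 segment covered the start of Cyp3a41b over 4800 bp, chr5:145581601-145586400, and next to it inside the gene lay a state 1 segment of 3000 bp, chr5:145578601-145581600. In C57BL/6J the same pair was 3800 bp of state 5, chr5:145582201-145586000, and 3000 bp of state 1, chr5:145579201-145582200. In CAST/EiJ, which had no state 5 there, the longest state 1 segment of the gene was 3400 bp, chr5:145578601-145582000.

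Aligned on their start sites, from 2 kb before to 26 kb after, the copies had the same state in 66.7% ± 9.35 of 141 bins within a strain. The value was 80.9% in 129S1/SvImJ, 77.3% in C57BL/6J and 76.6% in PWK/PhJ, it was 63.8% in A/J, NOD/ShiLtJ and NZO/HlLtJ, and it was 62.4% in DBA/2J, 56.7% in WSB/EiJ and 54.6% in CAST/EiJ. The same copy in another strain was in the same state at 33.5% of bins for Cyp3a41a and 30.9% for Cyp3a41b. The 2 copies of a strain were thus more alike than a copy was between strains, in 9 of 9 strains. The part of read placement in this likeness was not tested. Among the other pairs of the 8 clustered members aligned in this way (Cyp3a13 was not aligned), the highest was Cyp3a11 with Cyp3a25, at 47.4% ± 14.1.

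**Figure D3:**
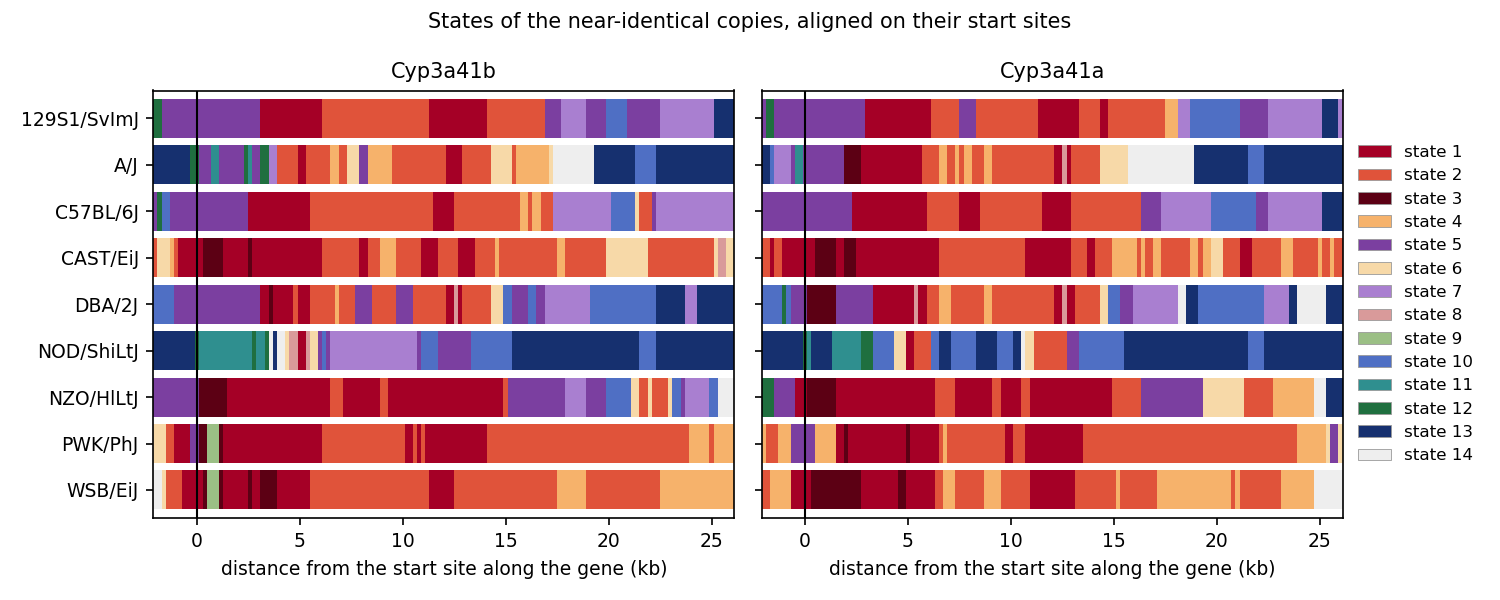
Rows are strains and the x axis is the distance in kb from the start site (black line) along Cyp3a41b, left, and Cyp3a41a, right, with the 14 states as colours. State 5 (dark violet) spans the start of both copies in 129S1/SvImJ and C57BL/6J, red states 1 to 3 fill most of both copies in CAST/EiJ and PWK/PhJ, and NOD/ShiLtJ is mostly in state 13 and other X-enriched states.

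The start sites were either led by states 1 to 3 in all strains or split, and the split did not follow the wild-derived and classical groups throughout. Within 1 kb of the start, states 1 to 3 led in 9 of 9 strains at Cyp3a13, Cyp3a57, Cyp3a44, Cyp3a11, Cyp3a25 and Cyp3a59. At Cyp3a16 an X-enriched state led in 7 strains, and state 1 led only in CAST/EiJ and WSB/EiJ. At Cyp3a41b an X-enriched state led in 6 strains, namely state 11 in NOD/ShiLtJ, state 13 in A/J and state 5 in NZO/HlLtJ, DBA/2J, C57BL/6J and 129S1/SvImJ, while state 1 led in the 3 wild-derived strains. In PWK/PhJ, however, state 1 held only 36.4% of the Cyp3a41b window and X-enriched states 18.2%, and the bin of the start site was in state 5. In NZO/HlLtJ states 1 to 3 held 45.5% of the Cyp3a41b window. At Cyp3a41a an X-enriched state led in 5 strains, PWK/PhJ included, state 1 led in CAST/EiJ and WSB/EiJ, and state 3 led in DBA/2J and NZO/HlLtJ. In DBA/2J the X-enriched states together still held more of that window, 54.5% against 45.5% for states 1 to 3, while in NZO/HlLtJ states 1 to 3 held 72.7%. The start window of Cyp3a41b and of Cyp3a41a differed in 75.0% of bins between strain pairs and that of Cyp3a16 in 63.4%. It differed in 34.3% at Cyp3a57, 26.8% at Cyp3a11, 25.0% at Cyp3a44, 24.2% at Cyp3a25, 6.06% at Cyp3a59 and 0% at Cyp3a13. Leading states and disagreement of the start windows of all genes were not computed, so these counts and values have no reference. PWK/PhJ stood apart from the other wild-derived strains at Cyp3a16, where all of its start window was X-enriched (100%, with state 5 in 81.8%) although these states held only 8.51% of the whole gene.

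Cyp3a44, a female-predominant member at chr5:145773983-145805891, has a reference upstream sequence close to that of the copies. A link between this sequence and the states was not tested. Cyp3a44 kept states 1 to 3 in every strain. These states held 63.5% of its 181 bins in PWK/PhJ, 63.0% in WSB/EiJ, 60.2% in CAST/EiJ, 50.8% in 129S1/SvImJ and DBA/2J, 49.2% in C57BL/6J, 48.6% in A/J, 42.0% in NOD/ShiLtJ and 41.4% in NZO/HlLtJ. All 3 wild-derived strains lay above the classical ones here as well, with CAST/EiJ at 60.2% the nearest to 129S1/SvImJ and DBA/2J at 50.8%. X-enriched states held 32.0% in NOD/ShiLtJ and at most 8.29% in any other strain. In NOD/ShiLtJ a state 13 segment of 31.8 kb, chr5:145748201-145780000, entered the far end of the gene and held part of these bins. The start window there was led by state 1 with 54.5% of its bins, and states 1 to 3 held no more than that, the lowest share of any strain at this gene.

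Cyp3a57, at chr5:145345149-145390926, was mostly in state 14 in 8 strains, with 67.6% in A/J and from 80.8% to 90% in the other 7. In NOD/ShiLtJ state 14 held 36.8% and state 13 held 52.4%. X-enriched states held 54.8% in NOD/ShiLtJ, 23.6% in A/J, 3.6% in DBA/2J, 2.4% in C57BL/6J and 0% in the other 5 strains. States 1 to 3 held 4.62% ± 1.89 of the gene (SD, n = 9), and state 2 led its start window in every strain.

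Cyp3a11, the PXR-responsive main P450 of its family in liver, at chr5:145854607-145879854, had no X-enriched bin in any strain. States 1 to 3 held 86.4% of its 147 bins in 129S1/SvImJ, 83.7% in A/J, 81.6% in DBA/2J, 80.3% in NOD/ShiLtJ, 79.6% in C57BL/6J and NZO/HlLtJ, 68.7% in CAST/EiJ, 52.4% in WSB/EiJ and 40.8% in PWK/PhJ. Here the wild-derived strains were the lowest 3, the reverse of the order at the copies, with no overlap. How often genes at large separate the strain groups in this way was not computed. State 1 alone held 59.2% in NOD/ShiLtJ, from 42.9% to 50.3% in the other classical strains, 29.9% in CAST/EiJ, 19.05% in PWK/PhJ and 17.7% in WSB/EiJ. State 4 made up much of the difference: it held 45.6% in WSB/EiJ, 36.1% in PWK/PhJ and 30.6% in CAST/EiJ, and from 11.6% to 19.7% in the classical strains. The start window of Cyp3a11 was 100% in states 1 to 3 in all 9 strains, so the difference lay outside that window, in the rest of the gene and its 2 kb flanks.

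Cyp3a25, at chr5:145977192-146009644, had 64.9% ± 8.30 of its bins in states 1 to 3, from 54.9% in A/J to 78.8% in 129S1/SvImJ, with wild-derived and classical strains intermixed. Its start window held state 3 in 9 of 9 strains, which no other member did. Cyp3a59, at chr5:146079208-146114978, had 42.7% in 129S1/SvImJ, 31.2% in C57BL/6J, 28.1% in NZO/HlLtJ, 27.1% in NOD/ShiLtJ, 25.6% in A/J, 24.6% in CAST/EiJ, 22.1% in DBA/2J, 19.1% in WSB/EiJ and 8.54% in PWK/PhJ. PWK/PhJ was the lowest, with 83.4% of the gene in state 14. Cyp3a13, about which the strains differed least, had 32.4% ± 4.96 in states 1 to 3, and all of its start window was in state 1 in all 9 strains. Neither Cyp3a25, Cyp3a59 nor Cyp3a13 had an X-enriched bin in any strain.

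**Figure D4:**
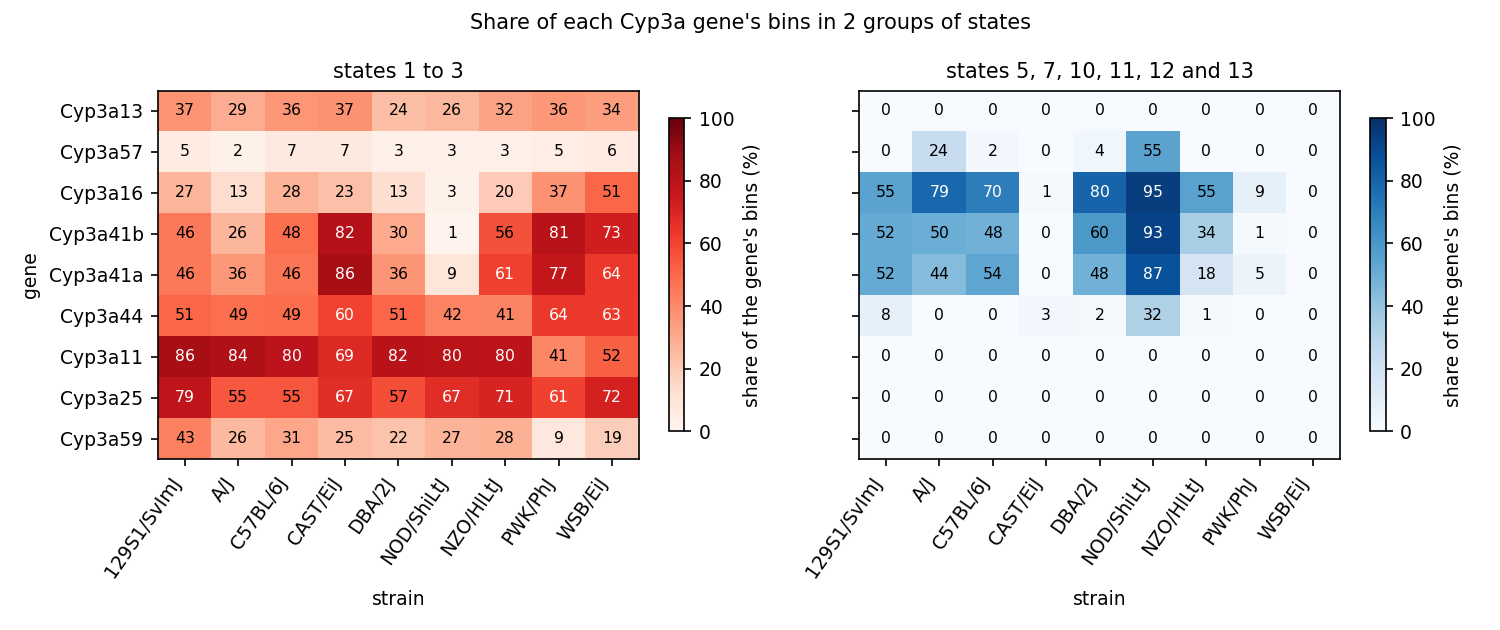
Each cell gives the percentage of a gene's bins (rows) in a strain (columns) that lay in states 1 to 3, left, or in the 6 X-enriched states, right. The right panel shows 3 filled rows, Cyp3a16, Cyp3a41b and Cyp3a41a, with CAST/EiJ, PWK/PhJ and WSB/EiJ near 0, and the left panel shows Cyp3a11 lowest in PWK/PhJ at 40.8%.

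The stretches between the genes followed the same outline. Between the padded spans of Cyp3a41b and Cyp3a41a, 105.2 kb, X-enriched states held 96.0% in NOD/ShiLtJ, from 69.4% to 86.5% in the other classical strains, 36.5% in PWK/PhJ, 2.09% in CAST/EiJ and 0% in WSB/EiJ. Between Cyp3a41a and Cyp3a44, 49.6 kb, they held 97.6% in NOD/ShiLtJ, from 69.0% to 83.9% in the other classical strains, 21.4% in PWK/PhJ and 0% in CAST/EiJ and WSB/EiJ. On the other side of Cyp3a44, between it and Cyp3a11, they held at most 12.6%, in NOD/ShiLtJ, and between Cyp3a11 and Cyp3a25 at most 0.43%. Further left, between Cyp3a16 and Cyp3a41b, they held 63.0% in NOD/ShiLtJ, 41.7% in A/J, from 12.7% to 26.9% in the other classical strains and at most 1.42% in the wild-derived ones. From left to right, the disagreement between strains in the 7 stretches was 57.1%, 36.3%, 61.9%, 63.6%, 27.7%, 13.9% and 29.7%. The stretch between Cyp3a16 and Cyp3a41b, at 36.3%, lay below both of its neighbours and above the stretches right of Cyp3a44.

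The strains differed in how far they stood from the rest. Over the member bins, the mean disagreement with the other 8 strains was 55.1% in NOD/ShiLtJ, 45.4% in WSB/EiJ, 44.8% in PWK/PhJ, 44.2% in A/J, 42.6% in CAST/EiJ, 41.1% in NZO/HlLtJ, 39.9% in DBA/2J, 39.4% in 129S1/SvImJ and 37.6% in C57BL/6J. Over the genome (the autosomes and X) NOD/ShiLtJ was at 15.0%, the mean of the 9, and PWK/PhJ was highest at 18.6%. The closest pair over the members was 129S1/SvImJ and C57BL/6J, at 26.5%, and the most distant was NOD/ShiLtJ and PWK/PhJ, at 66.5%. PWK/PhJ and WSB/EiJ, the pair with the largest disagreement over the genome at 20.8%, were among the closest over the members at 29.5%. The other pairs of wild-derived strains were also close over the members, CAST/EiJ and WSB/EiJ at 32.3% and CAST/EiJ and PWK/PhJ at 32.6%. These pairs share strains and are not independent.

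**Figure D5:**
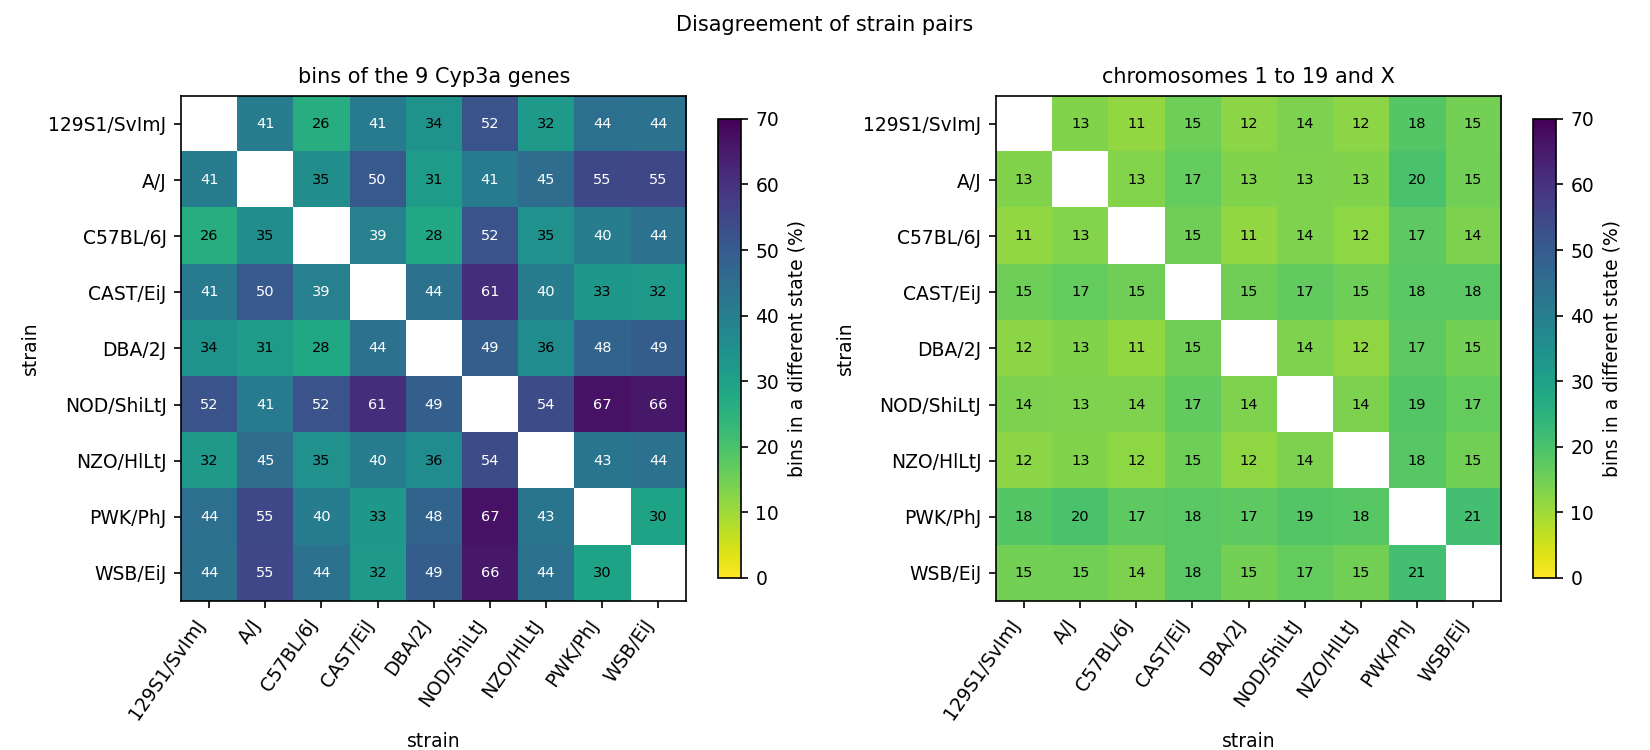
Each cell is the percentage of bins in which 2 strains had different states, over the 9 Cyp3a genes on the left and over chromosomes 1 to 19 and X on the right, on 1 colour scale. NOD/ShiLtJ is the darkest row on the left, reaching 66.5% with PWK/PhJ, while on the right all pairs lie between 11.3% and 20.8%.

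Other genes of the pathway were followed as lists written from general knowledge, but with earlier results of these data known. Among 6 xenobiotic and bile acid sensors, none reached 50% disagreement, and the starts of the 5 with a listed start site had 97.6% ± 3.02 of their bins in states 1 to 3. Nr1i2, which encodes PXR, differed in 19.4% and Nr1i3, which encodes CAR, in 24.7%, with Ahr highest at 33.3% and Rxra lowest at 16.0%. Among 7 genes of growth hormone signalling none reached 50%, with Stat5a highest at 41.3% and Jak2 lowest at 10.9%. Por, the reductase that passes electrons to P450 enzymes, differed in 24.8%. None of the 6 sensors, 7 growth hormone genes, 7 hepatocyte transcription factors and 3 electron partners had the X-enriched switch of the copies. Only 1.6% of all genes reached 50%, and 8.82% of autosomal genes had the switch, so their absence from lists this short says little.

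Of 6 other drug-metabolising P450 genes, 2 reached 50%, Cyp2e1 with 56.2% and Cyp2b10 with 50.7%, and Cyp2e1 had the X-enriched switch, from a strain with 100% of its bins in these states. Of 6 other female-predominant liver genes, 4 reached 50% and none had the switch, where 1.6% of all genes reached 50% and 8.82% of autosomal genes had the switch. They were A1bg with 61.8%, Cyp2b9 with 58.3%, Cyp2b13 with 54.7% and Sult3a1 with 52.2%, while Cux2 was lowest at 25.7%. At Cyp2b9 states 1 to 3 held 62.1% ± 28.8 of the bins, and at Cyp2b13 65.7% ± 31.2. Of 6 male-predominant genes none reached 50%, with Cyp2d9 highest at 49.5% and Cyp4a12a lowest at 6.37%, and 2 had the switch. The medians of the lists were 53.4% for the female-predominant, 40.3% for the male-predominant and 36.5% for the drug-metabolising P450 genes, against 19.7% for all genes. The lists were chosen with earlier results of these data known, so these counts and medians are context and not evidence.

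There are 6 protein-coding genes within 100 kb of the cluster. Zfp655, Zscan25 and Rnf6 had no X-enriched bin in any strain and differed in 23.1%, 36.5% and 18.0% of bins. Gm5565 and Gm6309, to the right of Cyp3a59, had X-enriched states in up to 71.4% and 82.9% of their bins and no bin in states 1 to 3, and 1700001J03Rik had up to 23.7%. The genes whose disagreement over the 36 pairs was most like that of the pooled members were Ube2n (Pearson r = 0.870), Vps52 (0.828), Keap1 (0.814), Med18 (0.810) and Tesk1 (0.809), of 4776 autosomal genes searched. In each of the 5, NOD/ShiLtJ was the strain furthest from the others. The ranking itself favours this, because NOD/ShiLtJ was also furthest over the member bins. No bin of the 5 genes was X-enriched in any strain. The pairs share strains, so these correlations are descriptions.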

How the data were processed

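Each strain's hepatocyte libraries had been joined by the authors into 1 deposited segmentation. Its value column is a category, the state number from 1 to 14, and not a count, signal or score. The submitters' processing notes name mm10, FastQC 0.11.5 and MACS 1.4.2 without their roles. The aligner, the segmentation tool, the handling of reads that fit 2 places, and read numbers are not given in the sources used here, so depth and counting error are unknown. Strains came from the labels. Segments were written as 200 bp bins, and gene spans and start sites were taken from RefSeq tables of GRCm38.p6. All 9 members matched, and disagreement is the percentage of bins with different states, averaged over 36 strain pairs. Groups were not compared by a test, since each strain has 1 segmentation, and Dixon's limit served only to pick out single strains for a closer look. The members and lists were chosen with earlier results of these data known. Named were all members, protein-coding genes within 100 kb, the first 2, highest and lowest of each list, and the 5 genes most alike (autosomal, at least 20 bins and 30% disagreement, over 1 Mb away). Other genes that reached 50% were named after their values were seen. Alternatives covered padding, bin edges, merged states, smoothing, copies and strains left out. Code was tested on simulated data. Python 3.11.15, numpy 2.4.6, pandas 2.3.3, Biopython 1.88 and matplotlib 3.10.9 were used.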

Additional observations from a re-analysis of the deposited data

Results flagged for a closer look

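NOD/ShiLtJ stood apart from the other 8 strains in 7 of 27 sets of strain values, by a gap to the next strain above Dixon's 95% limit. Chance flags about 1 in 20 sets. The sets share bins and come from genes chosen for their differences between strains in the same segmentations, so the number of sets is a description and supports nothing. Its mean disagreement with the other strains over the member bins was 55.1%, against 45.4% for the next strain. Bins in which it alone differed from 8 agreeing strains made up 6.11% of the member bins, against 2.20% in PWK/PhJ. At Cyp3a57 its X-enriched share was 54.8% and its mean disagreement 57.2%. At Cyp3a41a its mean disagreement was 90.5%. At Cyp3a44 its X-enriched share was 32.0% and its mean disagreement 54.4%. With 1 segmentation a strain, a difference of the strain and a difference of its libraries cannot be told apart.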

How the results depend on the processing

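The pooled disagreement of 43.4% stayed within the SD between strains except with states 13 and 14 merged (37.6%), a match within 1 bin (31.9%), Cyp3a41a and Cyp3a41b left out (37.5%) and 1 minus Cohen's kappa (52.6%). Leaving out 1 strain in turn gave 39.995% to 45.01%. The count of members at 50% was 1 without the copies, and 2 to 4 under the other settings. The count with more than 1 leading state was 2 where a leading state had to hold at least 50% of bins, and 6 to 9 otherwise. The shares of all genes under these alternatives were not computed, so the counts have no reference. Of 144 values for single members, 15 moved by more than the SD, and of 182 for single states, 1 did. For shares of X-enriched states and of states 1 to 3 and for the switch, alternatives were chosen after seeing the data, and none moved past these limits. Leaving state 13 out of the X-enriched group gave a mean share of 7.03% in place of 14.3%, and leaving out the copies 9.39%. Depth is unknown, so no difference could be set against counting error, and sequence differences between strains and the reference were not tested.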
